A study of Homo sapiens with 2 samples.

Results

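TRiC, also called CCT, is the cytosolic chaperonin of eukaryotic cells, and its 8 core subunits TCP1, CCT2, CCT3, CCT4, CCT5, CCT6A, CCT7 and CCT8 are described here by their mRNA levels. The members were picked by gene symbol from a deposited table of 40205 genes, and all 8 were found, each in 1 row. They were selected by a choice made with the values of this same contrast in view, so their levels and ratios are given as a description with no test. The RNA came from RKO, a human colorectal carcinoma cell line, transfected with an siRNA against hnRNPU (sihnRNPU, 1 library) or with a negative control siRNA (siNC, 1 library). hnRNPU is a nuclear protein that binds RNA and DNA. The sources used here give no siRNA sequences, doses or times. Both groups are transfected RKO cells, and the labels do not say whether they were grown or transfected together. With 1 library per group there was no replicate check, and words such as "higher" hold for this pair of libraries alone.

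TRiC is built of stacked rings, each holding 1 copy of every one of the 8 subunits in a fixed order. It encloses unfolded proteins in its central cavity and folds them with energy from ATP. Actin and tubulin are its best known clients, many WD-repeat proteins depend on it, and prefoldin hands nascent chains to it. The subunits are paralogous proteins that act in equal numbers, but protein amounts were not measured here. Levels of their mRNAs can be set beside each other on a per-length scale. FPKM, fragments per kilobase scaled to library depth, is such a scale.

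Values rested on 39807025 reads in the sihnRNPU library and 31801650 in the siNC library, read from the steps between low FPKM values. HNRNPU itself, the siRNA target, stood at 75.4 FPKM in sihnRNPU cells and 239 FPKM in siNC cells, which is 31.5% of the control level. Of 8 colon epithelial markers, 4 had a mean of at least 1 FPKM, all slightly lower in sihnRNPU cells: EPCAM (13.7 FPKM in sihnRNPU cells, 13.8 in siNC cells), KRT18 (81.6 and 88.1), CDX2 (4.41 and 4.83) and KRT8 (3.40 and 4.15). VIL1 was listed at 0.00918 FPKM in sihnRNPU cells and 0 in siNC cells, and CDH1, KRT19 and KRT20 were listed at 0 in both libraries. Markers of fibroblasts, blood cells and endothelium reached at most 0.00848 FPKM. Fewer cells and less RNA per cell cannot be told apart in such bulk libraries.

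The TRiC genes lie on 7 chromosomes, with CCT4 and CCT7 both on chromosome 2. Promoter windows of RefSeq (GRCh38.p14, 250 bases before to 50 bases after a transcript start, on the gene's own strand) were listed for 7 of the 8 genes. The windows of 3 subunits are shown because they span the data described below: TCP1 had the highest ratio between the libraries, CCT8 the highest level in the knockdown library and CCT3 the lowest ratio. Capitals mark matches on either strand to CGGAAG, the core recognised by ETS factors, to the CCAAT box, to the GC box GGGCGG, and to the paired heat shock units GAANNTTC and TTCNNGAA. None of the marked matches overlap in these windows.
TCP1, chr6:159789553-159789852, minus strand: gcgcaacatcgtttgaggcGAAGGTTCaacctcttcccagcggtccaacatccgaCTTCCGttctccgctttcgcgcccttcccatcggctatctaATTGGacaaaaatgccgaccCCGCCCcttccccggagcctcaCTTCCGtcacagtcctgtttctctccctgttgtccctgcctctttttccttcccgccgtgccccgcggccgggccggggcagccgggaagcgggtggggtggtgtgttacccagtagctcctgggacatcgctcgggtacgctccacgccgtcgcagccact
CCT8, chr21:29073599-29073898, minus strand: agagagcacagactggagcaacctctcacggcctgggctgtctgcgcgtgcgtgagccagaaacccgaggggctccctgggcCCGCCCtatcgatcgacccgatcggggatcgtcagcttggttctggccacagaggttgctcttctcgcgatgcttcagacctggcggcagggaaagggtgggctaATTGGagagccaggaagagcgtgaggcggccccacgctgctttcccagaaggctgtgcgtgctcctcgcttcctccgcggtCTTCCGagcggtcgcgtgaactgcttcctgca
CCT3, chr1:156338243-156338542, minus strand: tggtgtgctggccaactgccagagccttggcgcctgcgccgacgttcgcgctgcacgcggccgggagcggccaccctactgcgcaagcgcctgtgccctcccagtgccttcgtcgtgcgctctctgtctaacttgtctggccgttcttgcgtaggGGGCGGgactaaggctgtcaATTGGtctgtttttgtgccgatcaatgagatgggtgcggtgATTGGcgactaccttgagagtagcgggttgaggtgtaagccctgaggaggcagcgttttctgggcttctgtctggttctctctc

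The 7 genes had 9 windows. The ETS core was found in 6 of these windows, those of TCP1, CCT2, CCT5, CCT7 and CCT8, and in 19.5% of all 35116 windows. The window of CCT5 lies inside the RefSeq span of that gene (chr5:10249921-10266412), so it describes an internal start, and the same holds for the second window of CCT2 (chr12:69585639-69585938). CCAAT was present in 4 of the 9 windows (TCP1, CCT2, CCT3 and CCT8), and in 34.6% of all windows. GGGCGG was present in 6 of the 9 windows (TCP1, CCT2, CCT3, CCT7 and CCT8), and in 45% of all windows. GAANNTTC was present in TCP1 and in that second, internal window of CCT2 (6.77% of all windows), and TTCNNGAA in CCT4 alone among the 7 genes (7.74%). No window of these genes held the E-box CACGTG (7.26% of all windows), the cyclic AMP element TGACGTCA (1.85%), the TATA box TATAAA (11.5%) or the YY1 word AAGATGGC (2.89%). The letters G and C made up a mean of 63.1% of the 9 windows and 57.5% of all windows. These matches describe letters only, and binding was not measured.

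All 8 subunit mRNAs were higher in the sihnRNPU library than in the siNC library. Ratios are given as log2 of (FPKM + 1) in sihnRNPU over (FPKM + 1) in siNC, so that positive values mean higher in the knockdown. They ran from 0.06 for CCT3 to 0.74 for TCP1, with a median of 0.39, against a median of 0.03 over 7958 genes that reached 5 FPKM in either library. At a log2 ratio of at least 0.5, 3 subunits passed (TCP1, CCT6A and CCT5), where 6.13% of the 7958 genes did. With the libraries rescaled by the median ratio of expressed genes, CCT5 lay just under this limit, at 0.499. A ratio above 0 was found in 53.9% of those genes, and 0.314% of them reached a ratio of 1, which no subunit did. No subunit lay at -0.5 or lower, where 6.2% of the genes did, or at -1 or lower, where 0.754% did. Since the choice of members used this contrast, the counts are set beside the background without further reading.

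TCP1, the alpha subunit, gave the complex its name. It stood at 245 FPKM in sihnRNPU cells and 146 FPKM in siNC cells. The FPKM ratio was 1.67, with an exact 95% Clopper-Pearson counting interval of 1.64 to 1.71. In log2 ratio TCP1 ranked at position 119 from the top of the 7958 genes, the highest place of any subunit. CCT6A, the zeta subunit, stood at 279 FPKM in sihnRNPU cells and 177 FPKM in siNC cells, a ratio of 1.58 (interval 1.55 to 1.61) and a log2 ratio of 0.66. It ranked at position 184.

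CCT5, the epsilon subunit, stood at 217 FPKM in sihnRNPU cells and 149 FPKM in siNC cells. Its FPKM ratio was 1.46 (interval 1.43 to 1.48) and its log2 ratio 0.54, at position 392. CCT2, the beta subunit, stood at 242 FPKM in sihnRNPU cells and 180 FPKM in siNC cells, a ratio of 1.34 (interval 1.31 to 1.37). Its log2 ratio of 0.42 was the nearest below 0.5, and that of CCT5 the nearest above. CCT4, the delta subunit, was the least abundant member, at 98.7 FPKM in sihnRNPU cells and 78.5 FPKM in siNC cells. Its ratio was 1.26 (interval 1.22 to 1.30) and its log2 ratio 0.33. CCT4 and CCT5 are the subunits known to assemble into rings of a single kind when expressed alone.

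CCT7, the eta subunit, stood at 269 FPKM in sihnRNPU cells and 210 FPKM in siNC cells, with a ratio of 1.28 (interval 1.25 to 1.31) and a log2 ratio of 0.36. CCT8, the theta subunit, stood at 315 FPKM in sihnRNPU cells and 255 FPKM in siNC cells. Its ratio was 1.24 (interval 1.21 to 1.26) and its log2 ratio 0.30. These values place CCT4, CCT7 and CCT8 close together, between 1.24 and 1.28 times the control level. CCT3, the gamma subunit, differed least, at 314 FPKM in sihnRNPU cells and 301 FPKM in siNC cells, a ratio of 1.04 (interval 1.02 to 1.06). In log2 ratio CCT3 ranked at position 3710, near the middle of all genes. With the libraries rescaled by the median ratio of expressed genes, its log2 ratio was 0.02 and its FPKM ratio 1.01 (interval 0.995 to 1.03, which includes 1). These intervals cover counting error only, and variation between cultures was not measured.

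**Figure D1:**
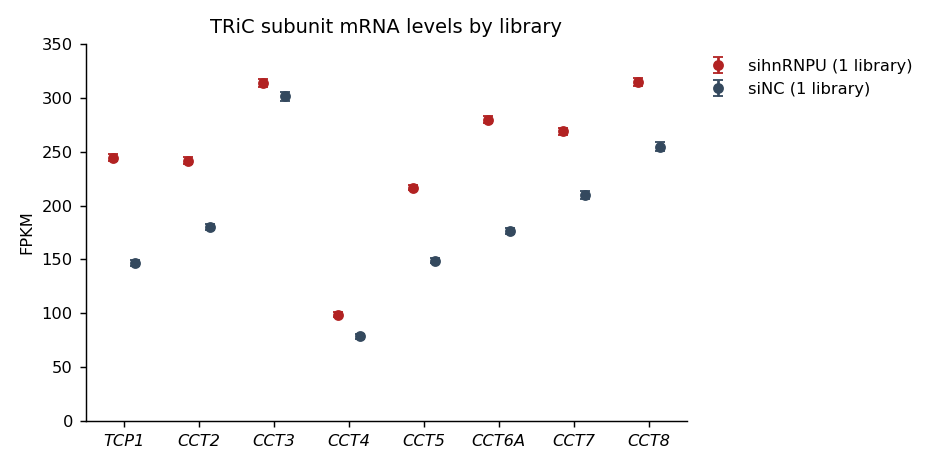
FPKM of each TRiC subunit (vertical axis) in the sihnRNPU library (red, left of each pair) and the siNC library (dark, right). Points are single libraries and bars are exact 95% Poisson counting intervals. The pairs stand farthest apart for CCT6A (279 against 177 FPKM) and TCP1 (245 against 146 FPKM) and nearest for CCT3 (314 against 301 FPKM).

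A higher minimum level gave a somewhat higher background. It set no upper limit, so those genes were not matched to the subunits in level. Of 1369 genes that reached 50 FPKM in either library, 7.45% reached a log2 ratio of 0.5, and their median was 0.08. In that set 13.9% of genes lay above the subunits' median of 0.39, and 11.5% did so among all 7958. The summed FPKM of the 8 subunits was 1978 in sihnRNPU cells and 1496 in siNC cells, a ratio of 1.32. This sum was 0.399% of all FPKM in sihnRNPU cells and 0.296% in siNC cells. Among 19784 mRNA rows, CCT8 was the subunit with the highest level in sihnRNPU cells, at position 132, and position 171 in siNC cells. CCT4 held position 554 in sihnRNPU cells and 692 in siNC cells, so every subunit was among the abundant mRNAs of both libraries.

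**Figure D2:**
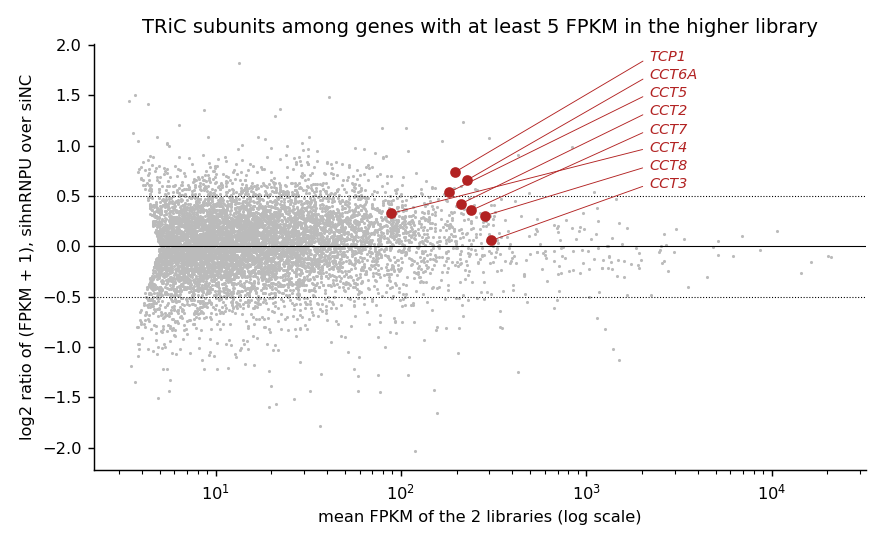
Log2 ratio of (FPKM + 1), sihnRNPU over siNC (vertical axis), against the mean FPKM of both libraries on a log scale, for 7958 genes (grey) with the TRiC subunits in red. Dotted lines mark 0.5 and -0.5. All 8 subunits lie above 0, and TCP1, CCT6A and CCT5 lie above the upper line.

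The subunits were unequal in level, and their order differed between the libraries. In sihnRNPU cells the order of FPKM was CCT8, CCT3, CCT6A, CCT7, TCP1, CCT2, CCT5 and CCT4. In siNC cells it was CCT3, CCT8, CCT7, CCT2, CCT6A, CCT5, TCP1 and CCT4. Counting intervals of neighbours overlapped for CCT8 and CCT3 and for TCP1 and CCT2 in sihnRNPU cells. They overlapped for CCT2 and CCT6A and for CCT5 and TCP1 in siNC cells. The other neighbours in each order were apart by more than counting error, and CCT4 lay far below the rest in both. How far such gaps vary between cultures was not measured, and an error in the length assigned to a gene would shift its level in both libraries alike.

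Levels of the subunits lay closer together in the sihnRNPU library. Their coefficient of variation was 28.0% in sihnRNPU cells and 36.8% in siNC cells. The highest subunit stood 3.19 times above the lowest in sihnRNPU cells and 3.84 times in siNC cells. Without CCT4, which was left out after the values were seen, these ratios were 1.45 in sihnRNPU cells and 2.06 in siNC cells. Apart from CCT4, subunits with lower control levels had the larger ratios: Spearman's rho between log2 ratio and siNC FPKM was -0.62 over the 8 subunits and -0.96 over the 7 without CCT4. Both axes contain the siNC value, which favours a negative rho, and over the 1369 genes reaching 50 FPKM rho was -0.35.

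Seen as shares of the summed FPKM, CCT3 made up less of the TRiC mRNA in the sihnRNPU library. An equal share would be 12.5%. CCT3 held 15.9% in sihnRNPU cells and 20.1% in siNC cells, and CCT8 held 15.9% in sihnRNPU cells and 17.0% in siNC cells. TCP1 held 12.4% in sihnRNPU cells and 9.78% in siNC cells, and CCT6A held 14.1% in sihnRNPU cells and 11.8% in siNC cells. The shares of CCT2, CCT4 and CCT7 differed by at most 0.433 percentage points between the libraries, and CCT5 held 11.0% in sihnRNPU cells and 9.95% in siNC cells. Shares sum to a fixed total, so a lower share of CCT3 does not mean less CCT3 mRNA.

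**Figure D3:**
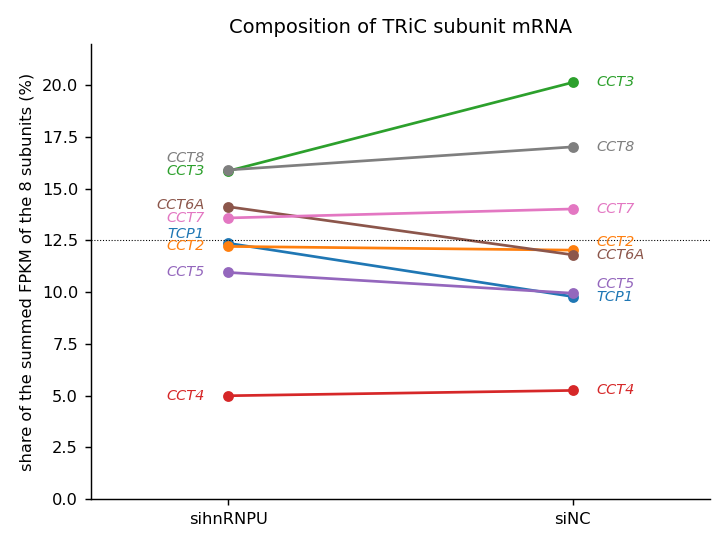
Share of each subunit in the summed FPKM of the 8 TRiC subunits (vertical axis, percent) in the sihnRNPU library (left) and the siNC library (right), with 1 line per subunit. The dotted line marks the equal share of 12.5%. CCT3 stands at 15.9% on the left and 20.1% on the right, while TCP1 and CCT6A stand higher on the left.

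Reads came out as whole numbers for CCT5, CCT7 and CCT8, and in steps of 0.5 for TCP1, CCT2, CCT3, CCT4 and CCT6A at lengths near their longest GENCODE 29 transcript. Such steps are the form left when a read is divided between similar or overlapping genes, so the values of these 5 subunits are less certain. Pseudogenes of the family were low. Of 16 pseudogene rows, 9 were listed at 0 in both libraries. CCT6P1 stood at 4.91 FPKM in sihnRNPU cells and 4.78 in siNC cells, and CCT6P3 at 2.05 FPKM in sihnRNPU cells and 1.84 in siNC cells. CCT8P1 stood at 0.236 FPKM in sihnRNPU cells and 0.397 in siNC cells, and the remaining pseudogenes, CCT4P2, CCT5P1, TCP1P1 and TCP1P3, reached at most 0.0789 FPKM. The part of divided reads in the ratios was not tested.

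Genes that start within 1000 bases of a TRiC subunit on the opposite strand were mixed. Their distances use the listed GRCh37 starts. Promoter windows use RefSeq starts on GRCh38.p14, and these sources need not give a gene the same start. PSPH, the phosphatase of the last step of serine synthesis, is listed at positions 56078744 to 56119268 of chromosome 7 (GRCh37, minus strand), and its start lies 110 bases from that of CCT6A (positions 56119378 to 56131682, plus strand). It stood at 8.72 FPKM in sihnRNPU cells and 18.6 FPKM in siNC cells, a log2 ratio of -1.01, with a counting interval of the FPKM ratio of 0.421 to 0.524. This divergent pair therefore went in opposite directions, since CCT6A had a log2 ratio of 0.66. The reads of PSPH also came in steps of 0.5, with the same limit on certainty.

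MRPL18, a protein of the mitochondrial ribosome, starts 643 bases from the listed start of TCP1, and the listed spans of these genes overlap by 644 bases. It stood at 92.7 FPKM in sihnRNPU cells and 86.8 FPKM in siNC cells (log2 ratio 0.09), against 0.74 for TCP1. At its other end TCP1 (chromosome 6, positions 160199530 to 160212135, minus strand) overlaps ACAT2, a thiolase of cholesterol synthesis, by 551 bases. ACAT2 stood at 57.1 FPKM in sihnRNPU cells and 50.6 FPKM in siNC cells (0.17). The sources used here do not say whether counting used strand, so reads from overlapping ends cannot be told apart. In RefSeq (GRCh38.p14) the span of TCP1, positions 159778498 to 159789602, is shorter than the listed span. Those of CCT3 and CCT5 are longer than listed. Overlap of the RefSeq spans with neighbours was not measured.

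FAM173B, a protein methyltransferase gene, starts 635 bases from the listed start of CCT5. It stood at 3.47 FPKM in sihnRNPU cells and 1.99 FPKM in siNC cells (0.58), beside 0.54 for CCT5. Without the added 1 FPKM, the ratios were 1.74 for FAM173B (interval 1.35 to 2.25) and 1.46 for CCT5. FAM173B rested on 198.5 reads in sihnRNPU cells and 91 in siNC cells, in steps of 0.5. COMMD1, a factor in copper handling and protein sorting, starts 98 bases from CCT4 and stood at 17.1 FPKM in sihnRNPU cells and 14.7 FPKM in siNC cells (0.21), beside 0.33 for CCT4. TSACC, next to CCT3, rested on 8 reads in sihnRNPU cells and 2 in siNC cells, and its ratio cannot be read. MIR3913-1, next to CCT2, was listed at 0 in both libraries. Of the small nucleolar RNAs inside the span of TCP1, SNORA20 rested on 6 reads in sihnRNPU cells and 5 in siNC cells, and SNORA29 on 7 in sihnRNPU cells and 12.5 in siNC cells, with intervals of the ratio that include 1. SNORA15, inside CCT6A, was listed at 0 in both.

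The relatives of TRiC did not follow as a block. CCT6B, the testis-enriched paralogue of CCT6A, stood at 1.61 FPKM in sihnRNPU cells and 1.13 FPKM in siNC cells, on 61 and 34 reads, with an interval of the ratio from 0.927 to 2.25. CCT8L2 was listed at 0 in both libraries. The chaperonin-like proteins of Bardet-Biedl syndrome, which help to assemble the BBSome, gave log2 ratios of 0.25 for BBS10, 0.12 for BBS12 and -0.21 for MKKS. BBS12 was low, on 151 reads in sihnRNPU cells and 103 in siNC cells, with an interval of the ratio (0.906 to 1.52) that includes 1. In the mitochondrial chaperonin, a separate family, the ring protein HSPD1 stood at 556 FPKM in sihnRNPU cells and 297 FPKM in siNC cells (0.90). Its lid HSPE1 stood at 199 FPKM in sihnRNPU cells and 185 FPKM in siNC cells (0.10). HSPD1 thus exceeded every TRiC subunit in ratio, and HSPE1 lay between CCT3 and CCT8. Recovered reads of HSPE1 were whole, but those of HSPD1 were fractional, so its value is less certain.

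Cofactors that work with TRiC were mixed. Of 6 prefoldin subunits 4 had a ratio above 0, as 53.9% of the 7958 genes did. None reached 0.5, which 6.13% of the genes did, and the median was 0.09. PFDN2 stood at 477 FPKM in sihnRNPU cells and 350 FPKM in siNC cells (0.44), and PFDN6 at 54.1 FPKM in sihnRNPU cells and 40.0 FPKM in siNC cells (0.43). VBP1 (0.12), PFDN5 (0.06), PFDN4 (-0.15) and PFDN1 (-0.25) were nearer 0 or lower. Among the phosducin-like proteins, which bind TRiC and modulate its folding, PDCL3 stood at 36.1 FPKM in sihnRNPU cells and 21.9 FPKM in siNC cells (0.70). TXNDC9 stood at 20.8 FPKM in sihnRNPU cells and 16.0 FPKM in siNC cells (0.36). PDCL, the cofactor for G protein beta subunits, lay at -0.12. PDCL2 was listed at 0.0584 FPKM in sihnRNPU cells and at 0 in siNC cells. Recovered reads of PFDN2, VBP1, PDCL3 and TXNDC9 were fractional, so their values are less certain.

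The R2TP and prefoldin-like complex assembles large protein machines with HSP90. Of its 7 members 6 had a ratio above 0, as 53.9% of the 7958 genes did, and the median was 0.18. Counting intervals of the FPKM ratio included 1 for UXT (0.902 to 1.14) and PIH1D1 (0.985 to 1.23). RUVBL1, an ATPase of that complex, stood at 78.4 FPKM in sihnRNPU cells and 47.3 FPKM in siNC cells (0.72), and PDRG1 had a ratio of 0.33. URI1, its prefoldin-like scaffold, was lower, at 24.5 FPKM in sihnRNPU cells and 37.0 FPKM in siNC cells (-0.58), and UXT lay at 0.02. Tubulin folding cofactors, which take tubulin on from TRiC, had a median of 0.08 over 6 members. TBCA (0.13) and TBCB (0.09) were highest and TBCD (-0.11) and TBCE (-0.05) lowest. Recovered reads of UXT, PIH1D1 and TBCA were fractional, so their values are less certain.

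Client mRNAs stayed near the background. Of 13 actin and tubulin genes, 12 had a mean of at least 1 FPKM. Their median was 0.09, with 7 above 0 and 5 below, where 53.9% of the 7958 genes lay above 0. None reached 0.5 or -0.5, which 6.13% and 6.2% of the genes did. TUBA4A (0.24) and TUBB2A (0.21) were highest. ACTG1, cytoplasmic gamma-actin, was lowest at 1433 FPKM in sihnRNPU cells and 1769 FPKM in siNC cells (-0.30), and TUBA1A lay at -0.09. Tubulin and actin genes have near-identical copies. Recovered reads of ACTG1 were whole, those of TUBA4A and TUBB2A were fractional and none were recovered for TUBA1A, so the values of the last 3 are less certain.

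Of 16 other reported clients 15 had a mean of at least 1 FPKM, with a median of 0.05, 8 above 0 and 7 below. Of the 7958 genes, 53.9% lay above 0. STRAP, a WD-repeat protein of RNA assembly and TGF-beta signalling, stood at 176 FPKM in sihnRNPU cells and 116 FPKM in siNC cells (0.59), and the transcription factor STAT3 had a ratio of 0.40. GNB5, a G protein beta subunit, stood at 1.76 FPKM in sihnRNPU cells and 4.97 FPKM in siNC cells (-1.11). The mitotic kinase PLK1 stood at 21.8 FPKM in sihnRNPU cells and 27.9 FPKM in siNC cells (-0.34). Recovered reads of STAT3 were fractional, so its value is less certain.

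All 11 genes of the HSP70, HSP90 and heat shock factor list had ratios above 0, where 53.9% of the 7958 genes lay. Their median was 0.57, and 8 of them reached 0.5, as 6.13% of the 7958 genes did. The list was chosen with earlier results of these data known and does not hold every chaperone gene. Co-chaperones outside it were mixed, among them AHSA1 (1.04), BAG2 (0.60), CDC37 (0.17), BAG3 (0.05) and AHSA2 (-0.57). The ranges of this list (0.30 to 0.99) and of the TRiC subunits (0.06 to 0.74) overlap, and their difference was not tested. HSPA8 (0.99), the constitutive HSP70, and HSPH1 (0.85), its nucleotide exchange factor, were highest. HSF1 (0.30), the heat shock factor known to act on chaperone genes, TRiC subunits among them, and the co-chaperone DNAJB1 (0.45) were lowest. Only TCP1 and CCT6A among the 8 TRiC subunits exceeded the median of this list. Recovered reads of HSPA8, HSP90AA1, HSP90AB1 and STIP1 were fractional, and none were recovered for HSPA1A and HSPA1B. The values of these genes, and so the median of the list, are less certain.

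**Figure D4:**
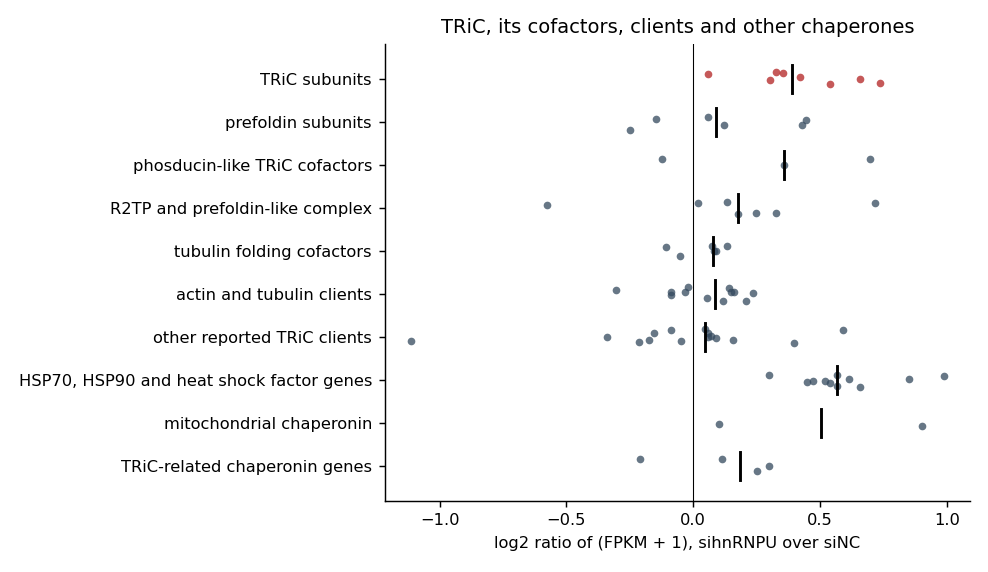
Log2 ratio of (FPKM + 1), sihnRNPU over siNC (horizontal axis), for each gene with a mean of at least 1 FPKM in the TRiC list (red, top) and in lists of its cofactors, clients, relatives and other chaperones (dark). Black bars are list medians, which stand at 0.39 for TRiC, 0.57 for the heat shock list and 0.09 for both prefoldin and the actin and tubulin clients. Vertical scatter within a row has no meaning.

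With 2 libraries, likeness to TRiC could be measured only as closeness in ratio. The 5 genes with a mean of at least 50 FPKM whose log2 ratio lay nearest to the subunits' median were SF3B2, a splicing factor subunit, NSMAF, PGD, an enzyme of the pentose phosphate pathway, RPF1, a factor of ribosome assembly, and CUL1, a ubiquitin ligase scaffold. Each lay at 0.39 on the log2 scale, which follows from how they were picked and is no sign of a shared behaviour. The values rest on 1 library per group, and recovered reads of PGD and RPF1 were fractional.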

How the data were processed

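FPKM values, 1 per gene and library, were computed by the authors before deposit, and the submitters' processing notes name Bowtie and GRCh37 without a version. The sources used here do not state the annotation, counting program or use of strand. Groups came from the sample titles. Both library depths were read from short noncoding genes of known length, and 56.9% of 2234 (sihnRNPU) and 57.0% of 2194 (siNC) such genes held whole reads within 1e-06. Reads of a gene came from the smallest length giving whole numbers in both libraries within 1e-05, divided by the smallest whole number that brought it under 1.1 times the longest GENCODE 29 transcript. A common factor can be lost, so reads and intervals are approximate. No further scaling was applied, and the pseudocount of 1 FPKM understates ratios of low genes. Lists used members averaging at least 1 FPKM, and all 103 names matched by symbol. With 1 library per group no test was made. Steps were checked on simulated data with Python 3.11.15, numpy 2.4.6 and scipy 1.17.1.

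The members and lists were chosen with earlier results of these data known. Named were the subunits, HNRNPU, and all prefoldin, phosducin-like, related and mitochondrial chaperonin genes. Also named were the 2 highest and 2 lowest of each other list that is not a marker list. Neighbours within 1000 bases or overlapping, pseudogenes, and the 5 nearest genes were named too. Co-chaperones outside the heat shock list were examples that followed no such rule. Promoter motifs were chosen after the windows had been seen. Alternatives were pseudocounts, rescalings, minimum levels and subunits with whole reads only.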

Additional observations from a re-analysis of the deposited data

How the results depend on the processing

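No paired analysis was possible because the groups hold a single library each. Equalising the FPKM sums shifted all log2 ratios by 0.03, scaling on the median ratio by -0.04 and scaling on the upper quartile by -0.01. All 8 subunits kept a ratio above 0 at pseudocounts of 0.1 and 5 FPKM and under these 3 rescalings. The ratio of CCT3 ran from 0.02 to 0.09, that of TCP1 from 0.70 to 0.77, and that of CCT5 from 0.499 to 0.57, so rescaling by the median ratio put CCT5 just under 0.5. The subunits' median was 0.35 after rescaling by the median ratio and 0.36 over the 3 subunits with whole reads, of which 1 reached 0.5. The share of genes reaching 0.5 was 5.53% at a minimum of 1 FPKM, 3.51% with no minimum and 7.45% at 50 FPKM. The phosducin-like median, 0.36, was 0.22 with no minimum, which admits PDCL2, and that of the mitochondrial chaperonin, 0.50, was 0.46 after rescaling by the median ratio. Leaving out CCT4 was chosen after seeing the data. Depth set precision: intervals were narrow for the subunits, on at least 5863 reads, and wide for CCT6B.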
